A study of Mus musculus with 24 samples.

Results

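The region at the start of Herpud1 was followed through the peak lists of chromatin immunoprecipitation sequencing (ChIP-seq) for Foxa proteins. The rule took every peak in a window of 80 kb on chromosome 8 (mouse build mm9), from 30.4 kb below the region described here to 48.1 kb above it. The window held 23 of the 26332 peaks of 14 lists. Of the 23, 15 belonged to 1 merged region, chr8:96910402-96911889, which was 1 of 18022 merged regions in all. Merged regions are unions of peaks that overlap by at least 1 bp. The region was chosen by the number of Foxa lists that hold a peak there, so that number is given as a description, without a test. Its place at the start of Herpud1 comes from the rule. Gene positions in mm9 were not used here, so that place was not tested against an annotation.

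Herpud1 encodes a membrane protein of the endoplasmic reticulum with a ubiquitin-like domain. It takes part in the degradation of misfolded proteins from the endoplasmic reticulum and is a well-known target of the unfolded protein response, where the factors ATF6, XBP1 and ATF4 raise its transcription. The 3 Foxa proteins share a forkhead DNA-binding domain, and act at enhancers and promoters of liver genes, where they are known to open chromatin. Their partner Hnf4a is a nuclear receptor of hepatocytes. Each peak marks DNA enriched by an antibody. Peak lists do not measure transcription of Herpud1.

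The libraries came from 2 kinds of C57BL/6 mouse cells. Induced hepatocyte-like (iHep) cells were made from fibroblasts of embryonic day 13.5, and all 3 lines carried introduced Hnf4a. Line 4a1 also received Foxa1, line 4a2 Foxa2 and line 4a3 Foxa3, and the antibody used in each line was the one against its own introduced Foxa protein. Line, introduced factor and antibody therefore cannot be told apart. Each line gave 2 Foxa libraries with EGS in the title and 1 without (non-EGS), a term that the labels do not spell out. A Flag antibody, against an epitope tag, was used in 1 EGS library each of lines 4a2 and 4a3. Hepatocytes of 10-week-old adults, whose labels name no introduced factor, gave 1 EGS library per Foxa antibody, all from preparation number 4, so hepatocyte values have no replicate. The numbers of iHep replicates are culture numbers in the titles, which need not be separate inductions. The depth of each library is unknown, and lists held 21 to 11408 peaks. A list of peaks cannot show whether the cells carried markers of their labelled type.

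The promoter sequence is shown because the region was chosen as the start of this gene. The RefSeq table of promoters gives 1 start for Herpud1, on the plus strand of GRCm38.p6, and the 250 bases before it lie at chr8:94386179-94386428 of that build. This is another build than that of the peaks, so the peaks cannot be laid on these letters. Capitals mark matches to the motifs named below, apart from the form of ERSE that was chosen after the sequence was seen.
Herpud1: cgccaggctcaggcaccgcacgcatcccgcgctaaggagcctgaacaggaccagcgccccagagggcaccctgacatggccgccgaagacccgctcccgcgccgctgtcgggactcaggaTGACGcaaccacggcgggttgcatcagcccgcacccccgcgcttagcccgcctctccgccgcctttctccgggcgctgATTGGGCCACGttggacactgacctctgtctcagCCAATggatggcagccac

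The stretch is rich in G and C. Its GC content was 69.2%, against a median of 52.4% over the same stretch of 32851 RefSeq promoters, and it held 25 CpG dinucleotides against a median of 6. Motifs were searched on both strands of the 250 bases before to 50 after the start. A match is a description of the letters only. Of 4 forkhead motifs the stretch held none: TGTTTAC was present in 3.65% of promoters, TGTTTGC was present in 5.07%, the form TGTTGAC was present in 2.5%, and the form TATTTAC was present in 3.04%. At least 1 of the 4 was found in 13.4% of promoters. It held none of the HNF4 core CAAAGTCCA, present in 0.475% of promoters, none of the GC box GGGCGG, present in 35.7%, and none of the full cyclic AMP response element TGACGTCA, present in 1.79%. The shorter core of that element, TGACG, which 20.8% of promoters hold, begins 130 bases before the start.

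A second endoplasmic reticulum stress response element (ERSE-II), a reverse CCAAT box followed after 1 free base by CCACG, begins 52 bases before the start. It is known to bind XBP1, and ATF6 together with the CCAAT-binding factor NF-Y, and 0.0365% of promoters (12 of 32851) hold it. Its first 5 bases are also a reverse CCAAT box, and a forward CCAAT box begins 18 bases before the start; CCAAT in either direction is found in 37.4% of promoters. The first form of the element (ERSE), a CCAAT box followed after 9 free bases by CCACG, was not matched, while 0.119% of promoters hold it. With its last letter changed from G to A, a form chosen after the sequence was seen, it matches from the CCAAT box at 18 bases, as do 0.125% of promoters.

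Among 43 genes of the unfolded protein response and of protein degradation from the endoplasmic reticulum, 37 had a promoter in the table. ERSE-II was held by Herpud1 and by Dnajb11, a chaperone of the endoplasmic reticulum. ERSE was held by 9 of the 37, against 0.119% of all promoters. Among the 9 were Hspa5 (the chaperone BiP) and Syvn1, the ubiquitin ligase HRD1 that works with Herpud1. Forkhead motifs were found in 3 of the 37, against 13.4% of all promoters. The 3 were Creb3l3, a liver transcription factor of the endoplasmic reticulum membrane, Eif2ak3, the stress sensor kinase PERK, and Ufd1, a cofactor in extracting proteins for degradation. A listed gene counts if any of its promoters matches, so counts of genes and shares of promoters have different units. Peaks at these other genes were not analysed here, since that needs gene positions in mm9. The elements of Herpud1, Hspa5 and Syvn1 are shown side by side in capitals, to compare the close spacing in Herpud1 with the wider one in the other genes, at chr8:94386367-94386397, chr2:34772015-34772053 and chr19:6046522-6046560 (GRCm38.p6, plus strand).
Herpud1 ERSE-II: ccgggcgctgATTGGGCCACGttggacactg
Hspa5 ERSE: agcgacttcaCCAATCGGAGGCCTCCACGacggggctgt
Syvn1 ERSE: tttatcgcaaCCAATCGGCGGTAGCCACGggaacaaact

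The first question was which libraries held a peak in the region. It was found in 10 of the 12 Foxa lists, namely 8 of 9 from iHep cells and 2 of 3 from hepatocytes. Of all merged regions, 0.00555% (1 of 18022) held a peak in at least 10 Foxa lists, and that 1 was the Herpud1 region. Among the Flag lists, that of line 4a3 held a peak and that of line 4a2 did not. All 3 Foxa1 lists of line 4a1 and all 3 Foxa2 lists of line 4a2 had it, as did 2 of the 3 Foxa3 lists of line 4a3.

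The 3 lists without the peak were the 3 shortest of the series. They were the Flag list of line 4a2 with 21 peaks, Foxa3 EGS replicate 3 of line 4a3 with 46, and the Foxa1 list of hepatocytes with 166. The shortest list with a peak there was that of Foxa2 in hepatocytes, with 244 peaks. Absence in these 3 lists and their length cannot be told apart, so absence of a peak does not show absence of binding. Just below Herpud1 in this count, 8 regions held a peak in 9 Foxa lists and 23 regions in 8, while 13445 regions held one in a single Foxa list.

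**Figure D1:**
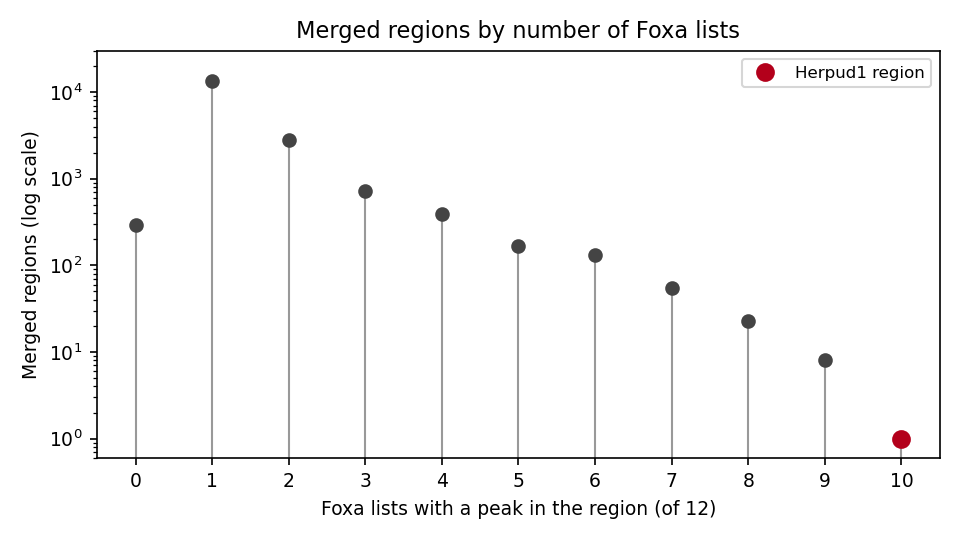
Merged regions (vertical axis, log scale) by the number of Foxa lists that hold a peak in them, of 12 (horizontal axis). The count drops from 13445 regions with 1 list to 8 regions with 9 lists, and the Herpud1 region, in red, is the 1 region with 10.

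The scores were used only as ranks within a list, since their scale is not given in the sources used here. A score percentile is the share of the list's peaks ranked below the peak, with ties at their mean rank, and the highest-scoring peak of each list in the region was used. In line 4a1 the Foxa1 peak of EGS replicate 1 had rank 144 of 940, at percentile 84.7. EGS replicate 2 had rank 238 of 542, at percentile 56.2, and non-EGS replicate 2 had rank 1353.5 of 3431, at percentile 60.6. Each of these Foxa1 peaks thus ranked above the middle of its own list.

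In line 4a2 the Foxa2 peak of EGS replicate 1 had rank 322.5 of 957, at percentile 66.4. EGS replicate 2 had rank 56 of 1040, at percentile 94.7, and non-EGS replicate 2 had rank 500 of 11408, at percentile 95.6. Each of these Foxa2 peaks also ranked above the middle of its own list. In line 4a3 the Foxa3 peak of EGS replicate 1 had rank 153 of 1246, at percentile 87.8, and that of non-EGS replicate 2 had rank 54.5 of 4317, at percentile 98.7. The Flag peak of line 4a3 had rank 21 of 883, at percentile 97.7.

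In hepatocytes the Foxa2 peak had rank 33 of 244, at percentile 86.7, and the top Foxa3 peak had rank 44.5 of 1091, at percentile 96.0. The 8 iHep Foxa lists ranged from 56.2 to 98.7 with a median of 86.2. Percentiles of lists of different length have no common scale, so no order between lists or cells was read from them. Some scores were tied. The number of peaks with exactly the score of the top Herpud1 peak, itself included, was highest at 37, in EGS replicate 2 of line 4a1, and was 1 in the non-EGS Foxa2 list of line 4a2 and in the Flag list of line 4a3. Ties were found in lists of both kinds: the non-EGS Foxa3 peak of line 4a3 just outside the region shared its score with others, 162 peaks in all. Giving ties their lowest rank lowered a percentile by at most 3.32 points.

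**Figure D2:**
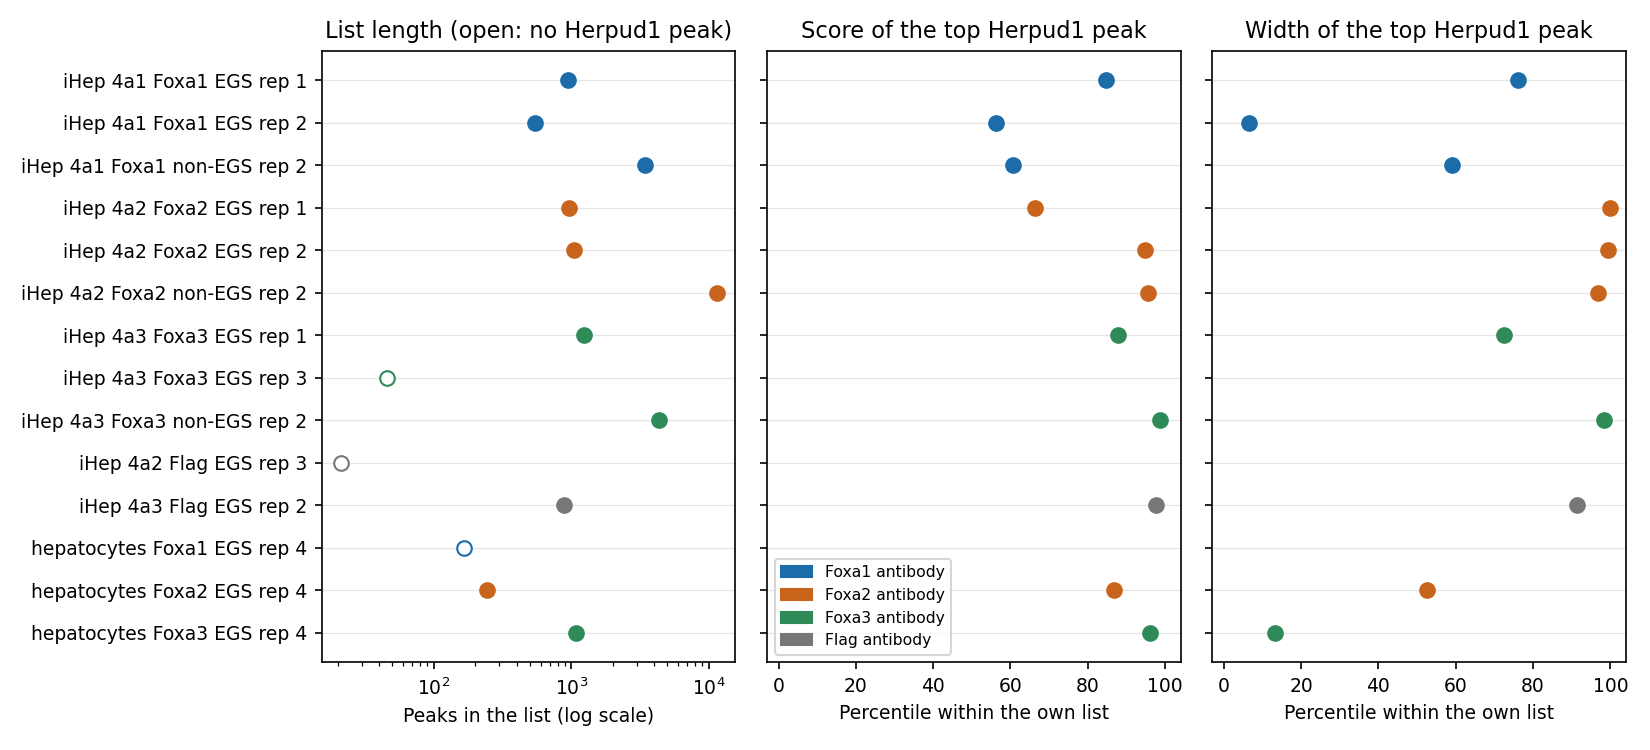
Each row is a library, and colours give the antibody. Left, peaks in the list (log scale), with open circles for the 3 lists without a Herpud1 peak, of 21, 46 and 166 peaks; middle and right, the percentile of the score and of the width of the top Herpud1 peak within its own list, where scores range from 56.2 to 98.7 and widths from 6.64 to 99.8.

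The second question was where in the region the peaks lay. Those of lines 4a1 and 4a2 fell in the higher-coordinate part. Foxa1 peaks of line 4a1 ran from 96911260 to 96911456 and from 96911509 to 96911712 in EGS replicate 1. Those of EGS replicate 2 ran from 96911335 to 96911431, and of non-EGS replicate 2 from 96911289 to 96911727. The single peak of EGS replicate 2 lay inside the first peak of replicate 1, and the non-EGS peak spanned most of both.

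Foxa2 peaks of line 4a2 were single in each list. They ran from 96911260 to 96911714 in EGS replicate 1, from 96911303 to 96911668 in EGS replicate 2 and from 96911120 to 96911889 in non-EGS replicate 2. EGS replicates 1 of lines 4a1 and 4a2, which share a run code, began at the same base, and the last ends of their peaks were 2 bp apart. Whether the run plays a part in this was not tested, and EGS replicate 2 of line 4a2, with the same code, began 43 bp higher. The Flag peak of line 4a3 ran from 96911213 to 96911670, also in the higher-coordinate part.

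The Foxa3 lists extended further. EGS replicate 1 of line 4a3 had peaks from 96910454 to 96910768 and from 96911242 to 96911441, with 473 bp between them. Non-EGS replicate 2 had a peak of 1055 bp from 96910402 to 96911456 and another from 96911537 to 96911794, with 80 bp between them. A further peak of that library, from 96910005 to 96910221, lay 180 bp outside the region. The first peaks of Foxa1 EGS replicate 1 and of Foxa3 non-EGS replicate 2 ended at the same base, 96911456. In hepatocytes the Foxa3 peaks ran from 96910452 to 96910553 and from 96911155 to 96911313, and the Foxa2 peak from 96911655 to 96911778.

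**Figure D3:**
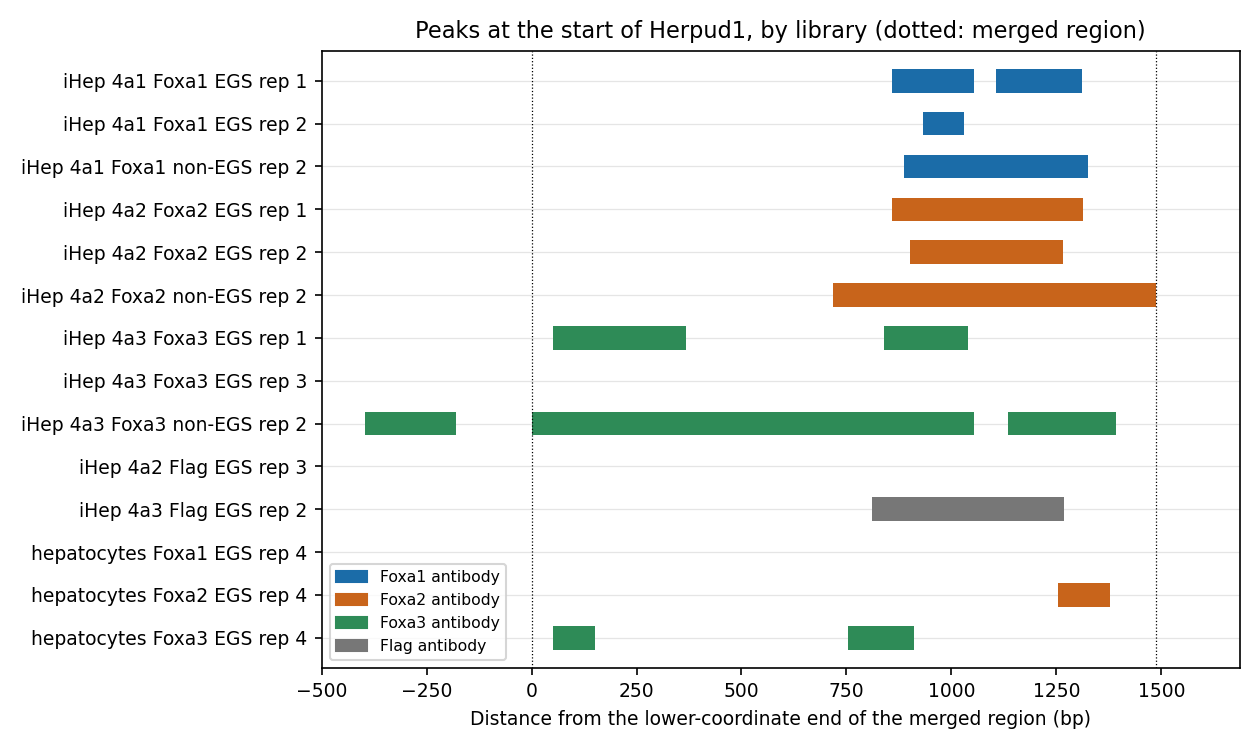
Peaks of each library (bars, coloured by antibody) against the distance in bp from the lower-coordinate end of the merged region, with dotted lines at its ends. Foxa1, Foxa2 and Flag bars lie in the higher-coordinate part, bars near the lower end occur in 3 Foxa3 lists, and 3 libraries have no bar.

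These positions form 2 intervals that at least 2 Foxa lists cover. The lower interval, chr8:96910452-96910768, of 317 bp, was covered in 3 lists, all with the Foxa3 antibody: EGS replicate 1 and non-EGS replicate 2 of line 4a3, and hepatocytes. No Foxa1, Foxa2 or Flag peak reached it. The higher interval, chr8:96911120-96911794, of 675 bp, held a peak of all 10 Foxa lists. Between them lay 351 bp that only the wide non-EGS Foxa3 peak of line 4a3 covered. Without that library the region came apart into 2 pieces, of 317 bp with 2 lists and of 770 bp with 9 lists. The intervals were drawn after the peaks were seen, so they describe the lists and were not tested.

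Within the higher interval, 97 bp from 96911335 to 96911431 were covered in all 8 iHep Foxa lists that had the peak. This is the extent of the narrowest Foxa peak, that of Foxa1 EGS replicate 2. The hepatocyte Foxa peaks lay on either side of this interval and did not reach it. The hepatocyte Foxa3 peak lay 21 bp below it and the hepatocyte Foxa2 peak 223 bp above it. No base was covered in all 10 lists, and the most over any base was 8. Of the 28 pairs of iHep lists, all 28 had overlapping peaks in the region, as did 13 of the 16 pairs of an iHep and a hepatocyte list. The hepatocyte Foxa2 peak overlapped 6 of 8 iHep lists and the hepatocyte Foxa3 peaks 7 of 8, and the pair of hepatocyte lists did not overlap.

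**Figure D4:**
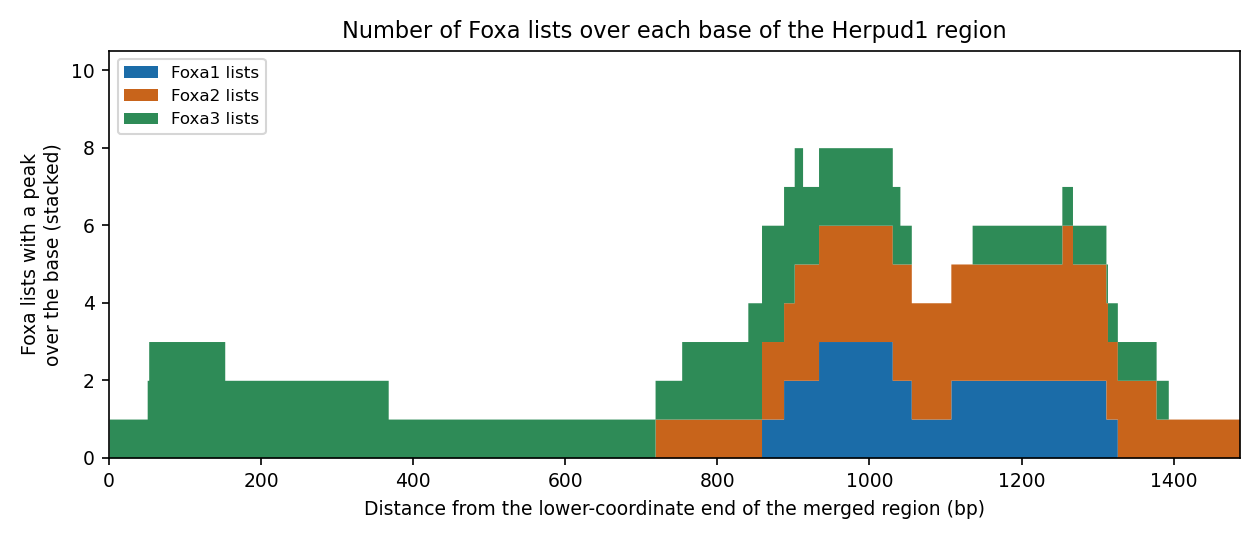
Number of Foxa lists with a peak over each base (vertical axis, stacked by antibody) along the merged region (horizontal axis, bp). Coverage reaches 8 lists in the higher-coordinate part, with all 3 antibodies, while the lower part is covered by up to 3 lists, all of Foxa3.

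More than 1 peak in the region was found in 4 of the 11 lists. For the Foxa1 list of EGS replicate 1 of line 4a1, 917 merged regions held a peak of that list, and 2.29% of them held more than 1. Counted in the same way, the shares for Foxa3 in line 4a3 were 5.84% of 1130 regions in EGS replicate 1 and 1.58% of 4248 in non-EGS replicate 2. For Foxa3 in hepatocytes the share was 5.75% of 992 regions. The peaks of such a pair share a library and lie close together, so they are not independent sites.

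The third question was the width of the peaks. The highest-scoring Foxa peaks were 204, 97, 455, 366 and 200 bp wide in the 5 EGS lists of iHep cells, and 439, 770 and 1055 bp wide in the 3 non-EGS lists. Within each line, the highest-scoring peak of every EGS list was narrower than that of the non-EGS list: 204 and 97 bp against 439 bp for Foxa1 in line 4a1, 455 and 366 bp against 770 bp for Foxa2 in line 4a2, and 200 bp against 1055 bp for Foxa3 in line 4a3. This rests on 1 peak per list. From first to last peak, EGS replicate 1 of line 4a1 ran over 453 bp, more than the 439 bp of the non-EGS peak. The other EGS lists stayed narrower on that measure, in line 4a3 with 988 against 1393 bp. Across lines, the 455 bp peak of Foxa2 EGS replicate 1 exceeded the 439 bp non-EGS peak of line 4a1. The mean was 264 ± 144 bp with EGS (SD, n = 5) and 755 ± 308 bp without (SD, n = 3). The difference of -490.3 bp did not pass the exact permutation test over libraries (two-sided, p = 0.071, adjusted p = 0.14 over 2 tests). The smallest p that 56 assignments allow is 0.036. That test exchanges libraries across lines, although line and antibody are shared by both kinds. A version added after the data were seen exchanged the highest-scoring peaks only within a line. The mean of the differences within lines was -501 bp (5 of 5 EGS libraries narrower by that peak, exact permutation p = 0.11). That p is the smallest that 18 assignments allow, so this version could not pass the threshold. The title of the non-EGS Foxa3 library of line 4a3 gives no run code. No run code that is given holds Foxa libraries of both kinds in iHep cells, so the effect of EGS cannot be told apart from that of the run.

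Widths of whole lists differed too. All peaks of the non-EGS lists of lines 4a1 and 4a2 were at least 317 and 320 bp wide, and the median width was 417 bp and 458 bp in them. The EGS peaks of line 4a1, of 204 and 97 bp, were narrower than any peak of its non-EGS list. For that line the order of widths given above would therefore have held against any peak of the non-EGS list. The non-EGS Foxa3 list of line 4a3 had a median of 180 bp and a narrowest peak of 127 bp, yet it held the widest Herpud1 peak. In the 5 EGS lists the medians were 135.5 to 149 bp. As a percentile of its own list, the Herpud1 peak was at 76.0, 6.64, 99.8, 99.4 and 72.5 in the EGS lists, and at 59.1, 96.9 and 98.3 in the non-EGS lists. On that scale the difference was -13.9 points (exact permutation p = 0.79). The Foxa2 peaks of line 4a2 were among the widest of their lists in all 3 libraries, from percentile 96.9 to 99.8. The top Foxa1 peaks of line 4a1 were not, from 6.64 to 76.0. In EGS replicate 1 this contrast depends on taking 1 peak per list. There the 2 Foxa1 peaks ran over 453 bp from first to last, close to the 455 bp of the single Foxa2 peak. In hepatocytes the Foxa2 peak of 124 bp stood at percentile 52.7 and the top Foxa3 peak of 102 bp at 13.3.

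The midpoint of the top peak was compared in the same libraries, measured from 96910402. It averaged 1059.5 ± 105 bp with EGS (SD, n = 5) and 912 ± 333 bp without (SD, n = 3). The difference of 148 bp did not pass the threshold (exact permutation test, two-sided, p = 0.61, adjusted p = 0.61). It rested on 1 library, the non-EGS Foxa3 list of line 4a3, whose wide peak has its midpoint at 527 bp. Without it the difference was -44.8 bp.

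The fourth question was what else the lists held around the region. In lines 4a1 and 4a2 the nearest peak of the same list outside the region was 28.4 to 3489 kb away on the lower side. On the higher side it was 290.5 to 1446 kb away. The closest was a Foxa2 non-EGS peak of line 4a2 from 96882371 to 96882710, at percentile 40.7 of its list. The Foxa lists of these lines held only 24 to 540 peaks on all of chromosome 8, so wide gaps need not be particular to this region. Gaps around other regions were not compared. The next peak on the higher side began between 97948695 and 97948739 in both Foxa2 EGS lists, in Foxa1 EGS replicate 1 and in the Flag list of line 4a3. In line 4a3, the next Foxa3 peak on that side began at 97056672 with EGS and at 97056645 without.

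In the hepatocyte Foxa3 list a run of peaks continued beyond the region. After the 2 peaks in the region, 5 more followed on the higher-coordinate side, from 96915104 to 96915208, 96915644 to 96915750, 96915883 to 96916029, 96918494 to 96918700 and 96921168 to 96921329. They were 105 to 207 bp wide and stood at percentiles 35.6 to 74.0 of their list, below the top peak of the region. No other list, of iHep cells or of hepatocytes, held a peak over these 5 positions. That is common for this list and is no trait of this locus. The list held a peak in 992 merged regions, and without it the number of merged regions fell from 18022 to 17331. The 7 peaks spanned 10.9 kb, with gaps of 132 to 3790 bp. For scale, RefSeq gives Herpud1 a length of 8943 bp on GRCm38.p6, between the protein-coding genes Slc12a3 and Nlrc5. Whether the run lies over the gene was not tested, as positions of that build were not carried over. One further hepatocyte Foxa3 peak lay on the lower side, from 96901844 to 96901981, 8.47 kb from the region.

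Such runs are common in that list. Of its 1091 peaks, 24.0% (95% exact interval 21.5 to 26.7) begin a stretch of the same length with at least 7 peaks. The length and the number were taken from the run itself. The interval covers counting error only, and it is too narrow because neighbouring peaks share stretches. With 1 hepatocyte preparation, the run has no replicate check.

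**Figure D5:**
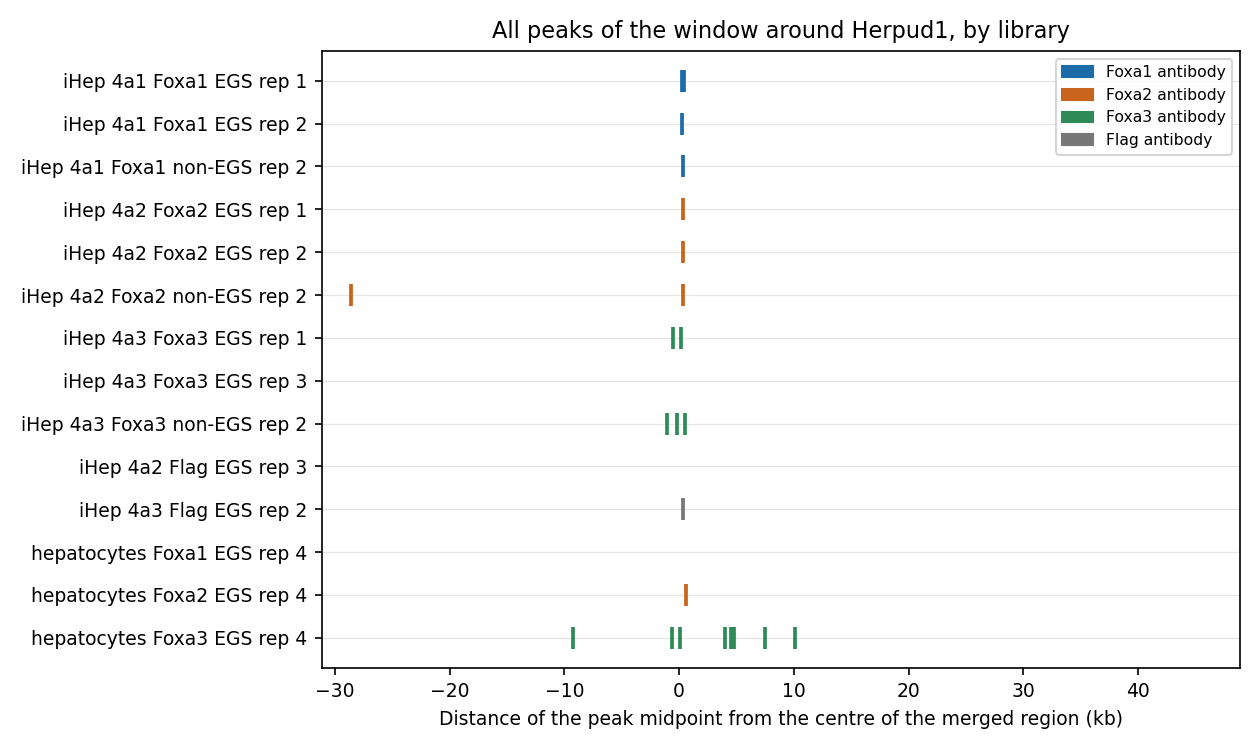
Midpoints of all 23 peaks of the window (ticks, coloured by antibody) by library, against the distance in kb from the centre of the merged region. In iHep libraries the ticks sit at or near the centre, apart from 1 Foxa2 tick, while the hepatocyte Foxa3 row has 5 ticks on the higher side and 1 on the lower side. A tick near the centre, of the non-EGS Foxa3 list of line 4a3, is the peak 180 bp outside the region.

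The last question was which regions had the most similar pattern over the 14 lists. Of the other 18021 regions none matched the presence and absence of the Herpud1 region in all 14 lists, and 4 matched in 13. These were chr4:137423070-137423720, chr16:30603031-30603638, chr16:90779927-90780602 and chr10:96148782-96149518. All 4 differed in the same list, that of Foxa3 in hepatocytes, which held a peak at Herpud1 and none at these regions. Their peaks had mean score percentiles of 74.3 to 93.4, against 82.2 at Herpud1. A further 24 regions matched in 12 lists. Of these, the one with the highest mean score percentile, 92.9, was chromosome 7 from 148662190 to 148662784.

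The 8 regions with 9 Foxa lists were these 4 and chr10:86306948-86309767, chr9:53164509-53165199, chr6:86437119-86438021 and chr17:35848274-35849145. None of the 8 held a peak of hepatocyte Foxa3. In 7 of them the Foxa lists were otherwise those of Herpud1. The region on chromosome 17 differed: each of the 9 Foxa lists of iHep cells had it, the list of 46 peaks included, and no hepatocyte list did. Without the hepatocyte Foxa3 list, 9 regions held a peak in at least as many Foxa lists as Herpud1, itself included. Without the hepatocyte Foxa2 list 2 regions did. Of all merged regions, 0.472% held a peak in at least 2 hepatocyte Foxa lists and 0.155% in at least 8 iHep Foxa lists. A peak in all 3 iHep lines and in at least 2 hepatocyte lists was found in 0.0388%, or 7 regions, of which Herpud1 is 1. At 1488 bp the merged region was wider than 99.7% of regions (median 403 bp), and since a merged region grows with each peak joined to it, this width is not independent of the number of lists. In the top-scoring 50% of each list, the region still held a peak in 10 Foxa lists, and no other region held as many. This was fixed in advance: the 10 top Herpud1 peaks stood at percentile 56.2 or higher, and dropping peaks cannot add a list to a region. It is therefore no further check of the count.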

How the data were processed

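ChIP-seq peak lists of 14 libraries were used; the 10 input libraries of the 24 samples were not analysed here. The authors' deposited lists give a chromosome, start, end, name and score per peak, 1 list per library. The submitters' processing notes name build mm9, MACS2 2.1.0, BWA 0.6.2 and bedtools 2.16.2. Which settings and threshold were used, and whether an input was subtracted, is not stated there. The deposited score has no stated scale, and its lowest value was 50 in the Flag list of line 4a3 against about 5 elsewhere, so it was only ranked within a list. A stricter or shallower list loses weak peaks, which limits every statement of absence.

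Starts were written 1-based. Peaks overlapping by at least 1 bp were merged with Python 3.11.15, numpy 2.4.6 and pandas 2.3.3, and merging was tested on simulated data. Widths and midpoints were compared by exact permutation (scipy 1.17.1) with Benjamini-Hochberg adjustment. Named were all peaks of the window, regions in at least 10 Foxa lists and up to 5 in 9 (all 8 are given, beyond that rule), the 5 regions most alike over the 14 lists (ties by mean score percentile), and neighbouring peaks. The region, gene list, motifs and tests were chosen with earlier results of these data known. Promoters came from RefSeq (GRCm38.p6), matched by symbol. Replicates are culture numbers, and nothing says that they were separate inductions, so the p-values may reflect technical spread only.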

Additional observations from a re-analysis of the deposited data

Results flagged for a closer look

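In 2 comparisons 1 library stood apart from the other iHep Foxa libraries at Herpud1. The width percentile of the peak in Foxa1 EGS replicate 2 of line 4a1 was 6.64, and the nearest of the other 7 was 59.1. The midpoint of the top Foxa3 peak in non-EGS replicate 2 of line 4a3 lay 527 bp from the lower-coordinate end of the region, and the nearest other lay at 939.5 bp. A total of 8 sets of values were examined, in overlapping sets of libraries, and chance sets a library apart in about 1 of 20.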

How the results depend on the processing

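The count of 10 Foxa lists with a Herpud1 peak was 7 with the top 300 peaks of each list, 7 of 9 with EGS libraries only, and 9 to 10 when 1 library was left out. It was 10 with the top-scoring 50% of each list, which the score percentiles given above fixed in advance. It was also 10 with at least 50% of the peak inside that of the longest list. With the region extended by 1 kb it was 10 too, which was fixed in advance. Extending cannot remove a list, and the 2 Foxa lists without a peak held none in the whole window. The 7 with the top 300 peaks likewise follows from the ranks given above. Highest-scoring peaks had 0 bp in common over all Foxa lists. With all peaks of each list, a version added after the data were seen, iHep lists shared 97 bp. The number of regions with at least as many lists as Herpud1 was 1 with peaks within 1 kb merged, and 1 to 9 when a library was left out. The EGS minus non-EGS width difference was -395.5 bp from first to last peak of a list (exact permutation p = 0.29). It was -648 to -340.1 bp with a library left out (exact permutation p = 0.057 to 0.19). With libraries exchanged only within a line, added after the data were seen, it was -501 bp, and the midpoint difference was 128 bp (exact permutation p = 0.67). The midpoint difference was -12.4 bp from first to last peak, and -44.8 to 245 bp with a library left out. The cause of these reversals was not tested, beside the library named above. With culture number as a replicate block, from the 2 pairs of culture 2 in lines 4a1 and 4a2, the width difference was -373 bp and the midpoint difference -72 bp, with no test. Labels do not say that equal numbers mark a shared culture. Unknown depth limits statements on lists without a peak.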
